A study of Rattus norvegicus with 12 samples.

Results

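Transcripts of 8 genes for alarmins and their close relatives were followed in cultured synovial fibroblasts: the S100 genes S100a4, S100a6, S100a8, S100a9, S100a10 and S100a11, Lcn2 for lipocalin 2, and Hmgb1. A member was the record that carried its symbol as gene name among 22442 gene records, and the record with the highest mean over all libraries was taken where several carried it. Of the 8 members, 7 had a record and 6 reached a mean of 1 FPKM (fragments scaled to transcript length and library size), as did 11611 of all records. S100a9 was not analysed here. The RNA came from FLS (fibroblast-like synoviocytes), grown in culture from the synovium of male Sprague Dawley rats with AA (adjuvant arthritis, raised by Freund's adjuvant in the paw). Poly(A) RNA was sequenced from 12 libraries in 4 groups of 3. The FCA group was kept in DMEM alone for 12 h, and the AT10, AT1 and AT01 groups received the taurine-conjugated bile acid TCDCA (taurochenodeoxycholic acid) at 10, 1 and 0.1 µM for the same time. All 4 groups were arthritic cells, no group of healthy cells was included, and the sources used here give neither the age of the rats nor the number of animals behind a library. The replicate numbers stand for repeated sets of the experiment in the study's account, which does not say whether these were separate cultures or animals, so the p-values measure only the spread between these libraries, which may be technical.

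Alarmins are proteins that work inside a cell and act as danger signals once they leave it. S100 proteins are small calcium-binding proteins that usually pair up and change the activity of a partner such as an annexin or a myosin. S100a8 and S100a9 form calprotectin, the major cytosolic protein of neutrophils and a marker of joint inflammation. S100a4 is known as fibroblast-specific protein and is used as a label for fibroblasts and migrating cells. Lipocalin 2 binds iron-carrying siderophores and is induced by NF-kB and STAT3 signals. Hmgb1 is a chromatin protein that, when released, is sensed by Toll-like receptors and by the receptor Ager.

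The data showed 3 S100 genes among the most abundant transcripts of these cells, a calprotectin gene near the bottom of the scale, and no member that passed the test in any comparison. S100a4 averaged 3376 ± 412 FPKM (SD, n = 12), S100a6 1104 ± 159.6 FPKM, S100a11 796 ± 61.4 FPKM and S100a10 118 ± 13.6 FPKM. Lcn2 followed at 71.9 ± 18.7 FPKM, Hmgb1 at 3.28 ± 1.03 FPKM and S100a8 at 0.292 ± 0.21 FPKM. By mean level S100a4 ranked 2 among all records, S100a6 18, S100a11 35, S100a10 413 and Lcn2 732. S100a4 alone held 1.14% of the summed FPKM. This order of the 7 measured members was the same in each of the 12 libraries. The ranges of neighbours in the order lay apart except for S100a10, whose lowest value was 89.6 FPKM, and Lcn2, whose highest was 116 FPKM. S100a6 and S100a11 came close, at a lowest value of 931 and a highest value of 899 FPKM. Hmgb1 stands in this order by the record of that name. Summed over 6 records of Hmgb1 and its copies, described below, the level was 24.0 to 101 FPKM. That sum was above Lcn2 in AT10 replicate 2, at 101 against 86.6 FPKM, and in AT01 replicate 3, at 60.4 against 59.1 FPKM.

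**Figure D1:**
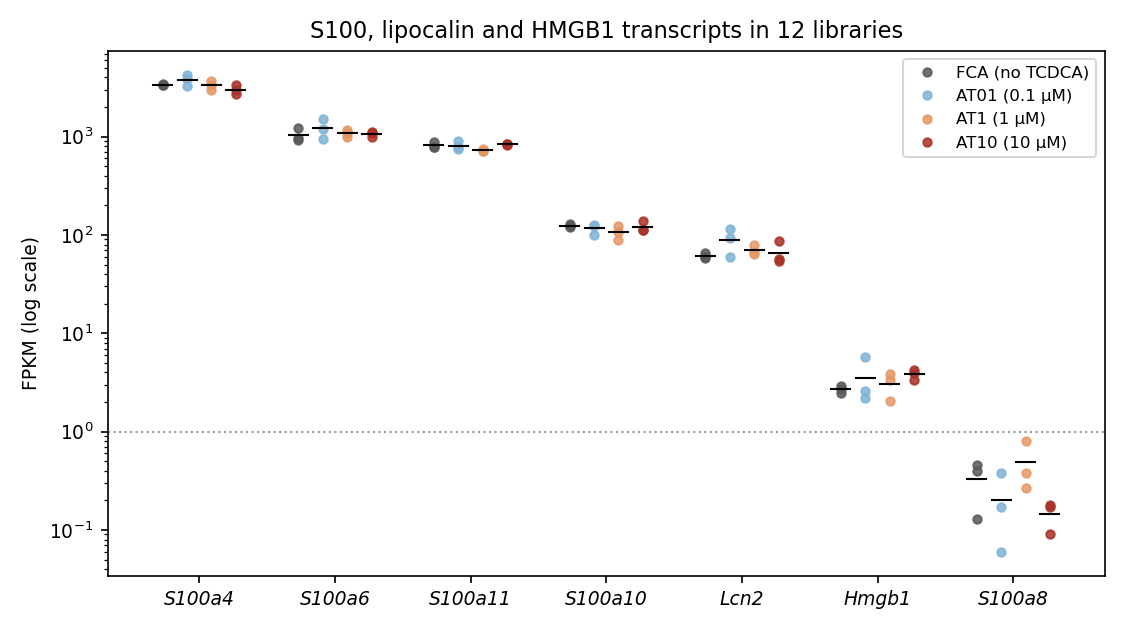
FPKM of the 7 measured members on a log axis, 1 point per library coloured by group, with a black bar at each group mean and a dotted line at 1 FPKM. The levels run from 2734 to 4274 FPKM for S100a4 down to 0.06 to 0.81 FPKM for S100a8, and the spread within a gene is small beside the distance between most genes.

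The S100 genes differed in level from one neighbour to the next. In the RefSeq annotation of the assembly GRCr8, S100a4, S100a5 and S100a6 follow each other directly on chromosome 2, and S100a11 and S100a10 are likewise adjacent. S100a5, between its abundant neighbours, averaged 1.90 FPKM with a range of 1.29 to 2.80, so that mean S100a4 was 1781 times and mean S100a6 582 times as high. S100a3, on the other side of S100a4, averaged 1.08 FPKM, and S100a8 lay 2 places beyond S100a6. Along the same chromosome S100a16 averaged 22.6 FPKM and S100a13 5.21 FPKM, whereas S100a1 averaged 0.912 and S100a7a 0.0408 FPKM. The genome build behind the deposited records is not given in the sources used here, so only the order of the genes is taken from RefSeq.

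**Figure D2:**
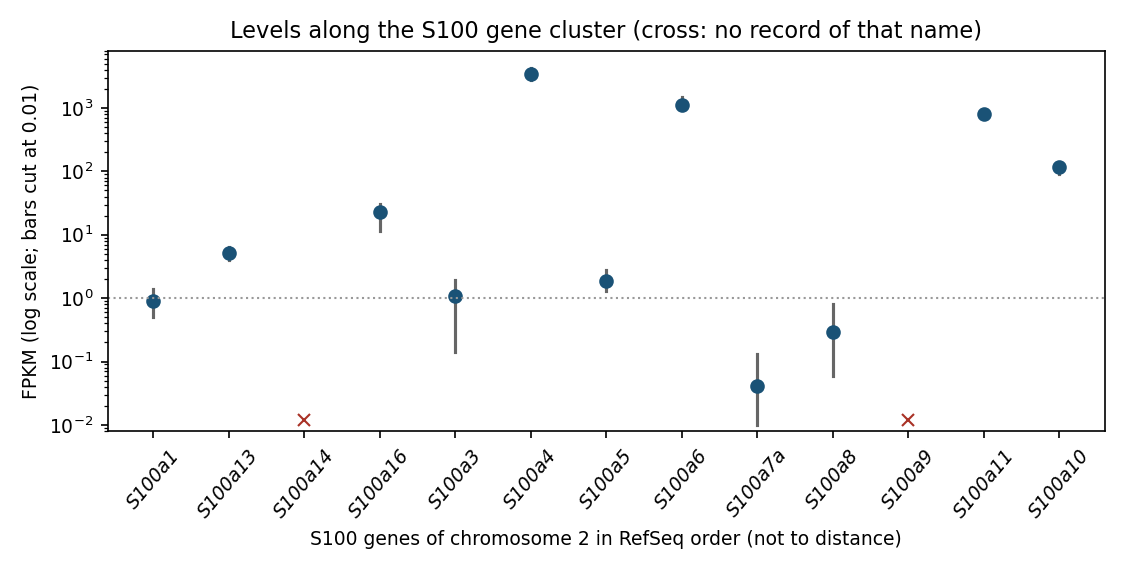
Mean FPKM (points) and range over the 12 libraries (bars) of the S100 genes of chromosome 2, in RefSeq order and not to distance, on a log axis cut at 0.01. S100a4 (3376 FPKM) and S100a6 (1104 FPKM) stand on both sides of S100a5 (1.90 FPKM), and crosses mark the 2 genes for which no record carried the name.

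The 250 bases before the start of these 3 neighbours are shown because the genes adjoin and differ widely in level. They are RefSeq sequence of GRCr8, read 5′ to 3′ on the strand of the gene, and capitals mark 3 motifs searched on both strands, whose matches do not overlap one another here. The first was the TATA box core TATAA. The second was the CCAAT box, and the third was the GC box GGGCGG. The table of upstream windows held 6 of the 8 members.
S100a4, chr2:178388279-178388528, plus strand: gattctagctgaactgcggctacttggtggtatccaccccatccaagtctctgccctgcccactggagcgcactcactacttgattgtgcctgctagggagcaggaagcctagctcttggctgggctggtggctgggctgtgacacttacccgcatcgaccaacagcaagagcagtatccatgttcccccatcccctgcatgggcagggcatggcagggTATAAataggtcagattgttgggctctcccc
S100a5, chr2:178394871-178395120, plus strand: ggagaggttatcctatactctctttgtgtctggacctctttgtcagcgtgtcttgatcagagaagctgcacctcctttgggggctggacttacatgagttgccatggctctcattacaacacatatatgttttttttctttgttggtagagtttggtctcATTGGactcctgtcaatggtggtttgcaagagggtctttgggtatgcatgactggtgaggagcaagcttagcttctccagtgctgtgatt
S100a6, chr2:178398287-178398536, plus strand: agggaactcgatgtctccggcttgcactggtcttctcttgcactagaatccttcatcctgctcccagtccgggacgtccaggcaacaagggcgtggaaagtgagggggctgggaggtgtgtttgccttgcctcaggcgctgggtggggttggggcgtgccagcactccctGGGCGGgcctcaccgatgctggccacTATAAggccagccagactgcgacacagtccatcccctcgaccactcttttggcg
S100a4 held TATAA beginning 31 bases before its start, and S100a6 held it 54 bases before, together with GGGCGG 80 bases before. The S100a5 window held neither of these and had the CCAAT box, read on the other strand and 90 bases before the start. The other windows of members did not follow level in this way. S100a11, at 796 FPKM, held GGGCGG and no TATAA, and Lcn2, at 71.9 FPKM, held none of the 3 motifs. Hmgb1 held only CCAAT, and S100a9, whose level was not analysed, held TATAA 42 bases before its start. Among 33360 windows of the same length, 24.0% held TATAA, 34.0% CCAAT and 30.5% GGGCGG on either strand. The matches are a description of the letters and say nothing about which factor is bound.

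S100a4 was the most stable member in untreated cells. It measured 3315, 3436 and 3389.6 FPKM in FCA, 4274, 3815 and 3289 in AT01, 3364, 3658 and 2954 in AT1, and 2947, 2734 and 3334 in AT10. The FCA libraries lay within 1.04-fold of each other, and every treated group overlapped them. The group means were 3380.2 ± 61.3 in FCA, 3793 ± 493 in AT01, 3326 ± 353 in AT1 and 3005 ± 304 FPKM in AT10 (SD, n = 3). On the scale of log2(FPKM + 1), on which all fold changes and limma tests are given, S100a4 was at -0.17 in AT10 against FCA with a 95% interval of -0.38 to 0.03, and at 0.16 in AT01 with an interval of -0.12 to 0.43. Between the outer doses the difference was -0.33 for AT10 against AT01 (limma, unadjusted p = 0.0481, adjusted p = 0.867), and 2 of 3 AT10 libraries lay below all AT01 libraries.

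S100a6, also called calcyclin, is a growth-associated S100 protein whose partners include annexins and the ubiquitin-ligase adaptor Cacybp. Its values were 976, 1224 and 931 FPKM in FCA, 1505, 1182 and 949 in AT01, 1099, 1174 and 996 in AT1, and 1121, 996 and 1096 in AT10. All groups overlapped, and the widest was AT01, whose libraries spanned 1.59-fold. S100a6 was 0.05 above FCA on the log2 scale in AT10, 0.07 above it in AT1 and 0.20 in AT01 (limma, adjusted p = 0.886, 0.831 and 0.83), and the widest interval, in AT01, ran from -0.29 to 0.69.

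S100a11 and S100a10 are partners of annexins at membranes. S100a11 was the member that varied least, with a residual SD of 0.09 on the log2 scale, where the median over all tested records was 0.17. It measured 781, 882 and 785 FPKM in FCA, 899, 786 and 746 in AT01, 708, 746 and 717 in AT1, and 841, 825 and 833 in AT10. All 3 AT1 values lay below all FCA and all AT10 values, and the highest of them, 746.3 FPKM, was just under the lowest AT01 value of 746.4 FPKM. In AT1 against FCA the log2 fold change was -0.17 with an interval of -0.34 to -0.002 (limma, unadjusted p = 0.0477, adjusted p = 0.451). In AT10 against AT1 it was 0.20 with an interval of 0.08 to 0.33 (limma, unadjusted p = 0.0074, adjusted p = 0.625). Neither passed the correction over all records.

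S100a10 gave 121, 124 and 129.9 FPKM in FCA, 124, 125 and 100.3 in AT01, 108, 124 and 89.6 in AT1, and 113, 112 and 139.6 in AT10. The FCA libraries again lay close together, and all treated groups overlapped them. The lowest mean, 107 ± 17.2 FPKM in AT1 against 125 ± 4.69 in FCA, gave a log2 fold change of -0.23 with an interval of -0.54 to 0.08 and an adjusted p from limma of 0.504.

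Lcn2 was the most variable of the abundant members. It measured 59.8, 66.3 and 58.0 FPKM in FCA, 116, 93.7 and 59.1 in AT01, 78.8, 64.3 and 67.7 in AT1, and 57.3, 86.6 and 54.6 in AT10. In AT01 2 of 3 libraries lay above all FCA libraries and the other lay among them. The group mean of 89.7 ± 28.8 against 61.4 ± 4.35 FPKM in FCA gave the largest fold change of any member, 0.49 on the log2 scale with an interval of -0.12 to 1.10 (limma, adjusted p = 0.742, exact permutation p = 0.3, two-sided, n = 3). Without AT01 replicate 1 the value was 0.28, and without AT01 replicate 3 it was 0.76. In the 9 TCDCA libraries together Lcn2 was at 0.25 (-0.19 to 0.70), with 5 of 9 libraries above all FCA libraries.

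S100a8 was detected in every library at a low level. It was listed at 0.13, 0.46 and 0.40 FPKM in FCA, 0.06, 0.17 and 0.38 in AT01, 0.81, 0.38 and 0.27 in AT1, and 0.09, 0.17 and 0.18 in AT10. The 3 AT10 values lay below the 3 AT1 values and the other groups overlapped, but the gene was under the filter of 1 FPKM and was not among the records tested. The number of reads behind such a value is unknown. Markers of neutrophils were likewise low: 8 of 10 listed genes had a record, 1 of them (Camp) averaged over 1 FPKM, their summed level ran from 1.49 to 2.66 FPKM over the libraries, and the receptor gene Csf3r stood between 0 and 0.03 FPKM.

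Hmgb1 measured 2.71, 2.93 and 2.47 FPKM in FCA, 2.18, 2.59 and 5.68 in AT01, 3.82, 2.07 and 3.36 in AT1, and 3.96, 4.22 and 3.37 in AT10. All 3 AT10 values lay above all FCA values, the other doses overlapped FCA, and the highest value of all belonged to AT01 replicate 3. The log2 fold change in AT10 against FCA was 0.39 with an interval of 0.14 to 0.64 (limma, unadjusted p = 0.00927, adjusted p = 0.249). A further record named Hmgb1 was at 0.83 FPKM on average in FCA and 1.91 in AT10, and likewise did not overlap between these groups (log2 fold change 0.67, limma, adjusted p = 0.19).

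These Hmgb1 values are uncertain, because other records are named or described as Hmgb1 or its copies. How reads were divided between these records was not tested. A record named AC135696.1, which the file describes as Hmgb1 mRNA, averaged 23.3 FPKM, and the Hmgb1-like gene Hmg1l1 16.04 FPKM, both well above the record named Hmgb1. AC135696.1 measured 20.9, 28.7 and 27.2 FPKM in FCA, 7.73, 18.7 and 21.6 in AT01, 21.3, 24.4 and 22.2 in AT1, and 29.5, 30.8 and 26.3 in AT10. It overlapped between FCA and AT10, and its lowest value by far was in AT01 replicate 1. The pseudogene record Hmgb1-ps4 was listed at 48.4 FPKM in AT10 replicate 2 and at 0 in the other 11 libraries. Summed over the 6 records, an alternative chosen after the values were seen, the log2 fold change was 0.47 in AT10 (limma, adjusted p = 0.534), -0.09 in AT1 and -0.23 in AT01. Single libraries set the outer values: without AT10 replicate 2, which held the Hmgb1-ps4 value, the sum was at 0.16 in AT10, and without AT01 replicate 1 it was at 0.12 in AT01.

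**Figure D3:**
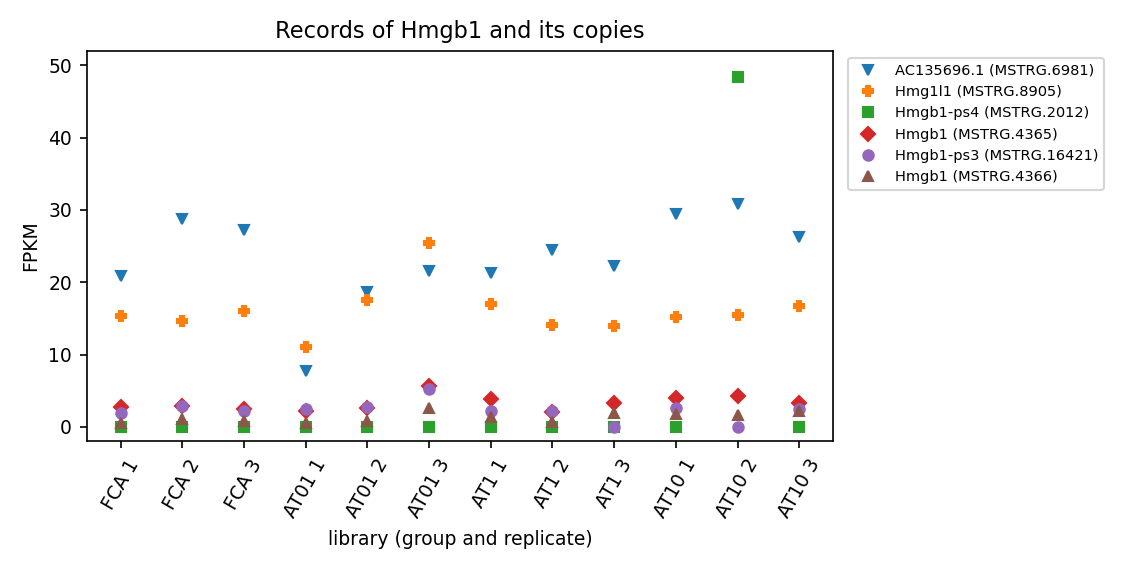
FPKM of the 6 records named or described as Hmgb1 or its copies, 1 symbol per record in each of the 12 libraries. The AC135696.1 and Hmg1l1 records lie above the records named Hmgb1 in all libraries, and Hmgb1-ps4 appears in AT10 replicate 2 only, at 48.4 FPKM.

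Counted by comparison, 0 of 6 tested members passed a Benjamini-Hochberg adjusted p under 0.05 in limma in any of the 7 comparisons. In AT10 against FCA, 0.172% of all tested records passed this and 11.9% had an unadjusted p under 0.05, as had 1 of 6 members (Hmgb1). In that comparison 1 member was higher with no overlap between groups, where 10.7% of all records were. In AT1 against FCA, 0.0947% of records passed and 11% had an unadjusted p under 0.05, with 1 member (S100a11) among the latter. That member was lower with no overlap, as were 10% of all records.

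In AT01 against FCA, 0.0947% of records passed and 6.6% had an unadjusted p under 0.05, and 0 members did. Between the doses, 0.258% of records passed in AT10 against AT1 and 6.46% were under 0.05 before adjustment, with 1 member (S100a11), and 5.7% of records were higher with no overlap, S100a11 among them. In AT10 against AT01 the shares were 0.0689% and 4.97%, and 1 member (S100a4) was under 0.05 before adjustment. In AT1 against AT01 they were 0.129% and 3.43% with 0 members under 0.05, and S100a11 was lower with no overlap, as were 3.75% of records. For the 9 TCDCA libraries against FCA the shares were 0.0258% and 12%, and 0 members were under 0.05.

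A Ballgown-style F test, which shares no variance between records, called 0 members at an adjusted p under 0.05 in each comparison. It called only 1 or 2 of all tested records per comparison, so its count of 0 says little about the members. The 6 members had a median log2 fold change of 0.04 at 10 µM, 0.02 at 1 µM and 0.18 at 0.1 µM, where the median over all tested records lay between -0.01 and 0.02 in every comparison. Against FCA, 6 of 6 intervals lay within 1 on the scale of log2(FPKM + 1) in AT10 and in AT1, so a change of the size of 1 on that scale lay outside them. In AT01 5 of 6 did, and the upper bound for Lcn2 was 1.10. This scale understates the change of low genes. The intervals therefore do not bound the change in FPKM itself in the same way for Hmgb1, whose upper bound in AT01 was 0.91.

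**Figure D4:**
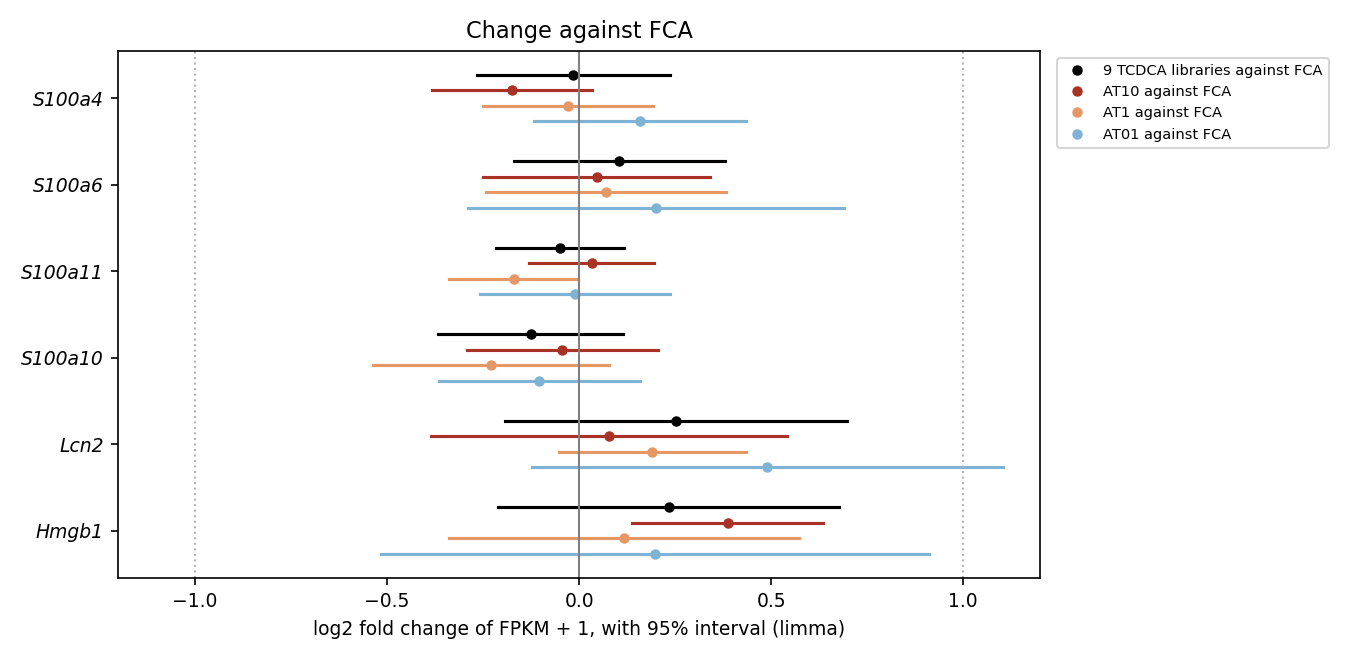
Log2 fold change of FPKM + 1 against FCA (points) with the 95% interval from limma (lines) for the 6 tested members, at each dose and for the 9 TCDCA libraries together, with dotted lines at -1 and 1. Only the interval of Lcn2 in AT01 crosses a dotted line, at 1.10, and the intervals of Hmgb1 in AT10 and S100a11 in AT1 leave 0 outside without passing the adjustment.

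One library stood apart for several members at once. AT01 replicate 1 was the highest of the 12 libraries for S100a4, S100a6, S100a11 and Lcn2. The 7 measured members held 2.23% of the summed FPKM there, and 1.65% to 1.98% in the other libraries. The same library had the lowest AC135696.1 value, and also the largest summed FPKM of all records, in a range of 284210 to 309696. Without it, the log2 fold change in AT01 against FCA was 0.07 for S100a4 and 0.03 for S100a6. The part of this library in the AT01 values beyond these fits was not tested.

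**Figure D5:**
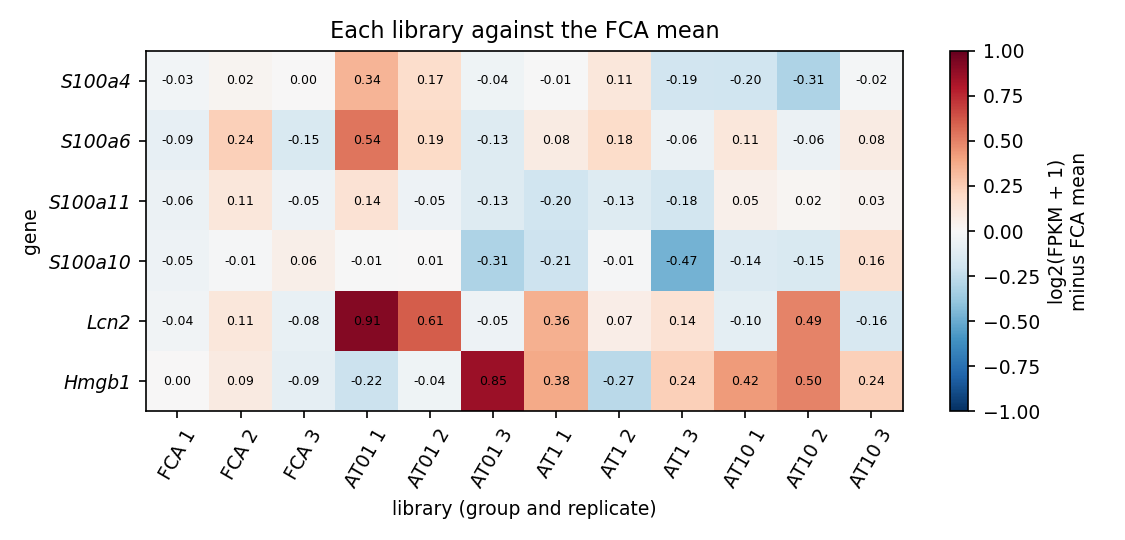
Difference of log2(FPKM + 1) from the FCA mean for the 6 tested members (rows) in the 12 libraries (columns), with the value printed in each cell and red for higher. AT01 replicate 1 is the library with the highest S100a4, S100a6, S100a11 and Lcn2, and in AT10 the 3 libraries are above the FCA mean for Hmgb1.

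Pairs of genes whose proteins are partners or paralogues were compared over the 12 libraries, in 3 pairs for which both genes reached 1 FPKM. S100a4 and S100a6 varied together, with Pearson's r = 0.70 (permutation p = 0.0114, adjusted p = 0.0284) and Spearman's rho = 0.61 (permutation p = 0.0403, adjusted p = 0.0604). Without AT01 replicate 1 and AT10 replicate 2, the 2 libraries farthest from the S100a4 median, r was 0.41 (permutation p = 0.241), over a narrower range of S100a4. With each library left out in turn r ran from 0.45, without AT01 replicate 1, to 0.77, and it no longer passed without AT01 replicate 1 (permutation p = 0.163). S100a11 ran against the annexin gene Anxa1, with r = -0.66 (permutation p = 0.0189, adjusted p = 0.0284) and rho = -0.62 (permutation p = 0.0367, adjusted p = 0.0604). Without AT01 replicate 1 and FCA replicate 2, r was -0.36 (permutation p = 0.328), again over a narrower range, and with each library left out it ran from -0.75 to -0.56, the latter without FCA replicate 2, where it no longer passed (permutation p = 0.0784). S100a10 and Anxa2, which form a tetramer at the plasma membrane, gave r = 0.43 (permutation p = 0.164, adjusted p = 0.164) and rho = 0.50 (permutation p = 0.0981, adjusted p = 0.0981), and r = 0.36 (permutation p = 0.299) without AT1 replicate 3 and AT01 replicate 3. After removal of the group means r was 0.78, -0.85 and 0.64 for the 3 pairs in this order. Points of 1 library share its depth and preparation.

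The named records most like each tested member over the 12 libraries, out of 11031, were LOC100360573 for S100a4 (Pearson's r = 0.932), LOC297756 for S100a6 (0.919), Mark2 for S100a10 (0.937), Kifc1 for S100a11 (0.887), LOC102553715 for Lcn2 (0.859) and Ammecr1 for Hmgb1 (0.947). They are the highest of many correlations over few libraries and are given as a description.

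Of the other S100 genes tested, S100b averaged 35.4 FPKM and S100a16 22.6 FPKM, and the rest 1.08 to 5.21 FPKM. Of 10 listed, 8 had a record and 5 were tested, and 0 passed the adjusted p in any comparison. S100b, a calcium sensor best known from glia and cartilage cells, measured 15.9, 32.9 and 12.7 FPKM in FCA, 55.0, 18.3 and 53.6 in AT01, 55.0, 58.9 and 43.4 in AT1, and 18.1, 21.1 and 40.1 in AT10. All AT1 values lay above all FCA values, as did those of 9.87% of all records. The log2 fold change was 1.42 with an SE of 0.35 (limma, unadjusted p = 0.00819, adjusted p = 0.42), larger than that of any member.

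Among 13 receptors of alarmins, 12 had a record and 7 were tested, and 0 passed in any comparison. Ager, the receptor for S100 proteins and Hmgb1, averaged 0.406 FPKM, Tlr2 0.309 and Tlr4 1.19 FPKM, whereas Bsg, which binds S100a9, averaged 292 FPKM and Nptn, which binds S100a8, 80.1 FPKM. Bsg, by the record of the higher mean of 2, was at 239, 252 and 218 FPKM in FCA and at 364, 358 and 305 in AT01 (log2 fold change 0.53, limma, unadjusted p = 0.00209, adjusted p = 0.371). In that comparison 6.6% of all records had an unadjusted p under 0.05. At the other doses Bsg overlapped FCA, at 225 to 326 FPKM in AT10 and 239 to 333 in AT1. Slc22a17, a receptor for lipocalin 2, averaged 5.34 FPKM.

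Of 6 binding partners, 5 were tested and 1 (Cacybp) passed the adjusted p, in AT10 against FCA, as did 0.172% of all records. Cacybp was at 15.8, 16.9 and 16.6 FPKM in FCA, 26.6, 25.1 and 25.8 in AT10, 9.49, 5.66 and 11.6 in AT1, and 12.7, 17.2 and 29.2 in AT01. AT10 lay wholly above FCA, as did 10.7% of all records, and AT1 wholly below it, as did 10%. The rise in AT10 was 0.62 on the log2 scale with an SE of 0.06 (limma, adjusted p = 0.0428), and the value in AT1 was -0.87 with an SE of 0.24 (adjusted p = 0.42). The adjusted p in AT10 rose to between 0.0734 and 0.122 when any 1 of the 6 libraries was left out, and to 0.467 in 1 fit over all 12 libraries. Anxa1, the partner of S100a11, averaged 431 FPKM in FCA and 499 FPKM in the 9 TCDCA libraries (log2 fold change 0.21, limma, adjusted p = 0.311, unadjusted exact permutation p = 0.00909, two-sided, n = 3 and 9). In that comparison 12% of all records had an unadjusted p under 0.05 in limma. Anxa1 also lay wholly above FCA in AT10 and in AT1, where 10.7% and 9.87% of all records did, and overlapped FCA in AT01.

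Among 7 other alarmins and HMGB paralogues, 5 had a record and 4 were tested, and 0 passed. Of 10 genes that NF-kB and STAT3 induce together with Lcn2 in stromal cells, 9 had a record and 7 were tested, and 0 passed. The chemokine genes Ccl2 and Cxcl1 were abundant, at 1122 to 2737 and 323 to 996 FPKM. Cxcl1 was at 441 to 996 FPKM in FCA and 323 to 414 in AT1. Socs3 was at 20.3 to 23.5 FPKM in FCA, 17.3 to 21.1 in AT10, 18.3 to 19.9 in AT1 and 15.9 to 19.5 in AT01. In AT1 both Cxcl1 and Socs3 lay wholly below FCA, as did 10% of all records. Cxcl2 was low, at 1.12 to 2.57 FPKM in FCA, 3.36 to 5.91 in AT10, 1.46 to 1.65 in AT1 and 1.64 to 7.31 in AT01. All AT10 values of Cxcl2 lay above all FCA values, as did those of 10.7% of all records, and the other doses overlapped FCA. Il6 averaged 106 FPKM in FCA and 156 FPKM in the 9 TCDCA libraries (log2 fold change 0.55, limma, adjusted p = 0.339, unadjusted exact permutation p = 0.0364, two-sided, n = 3 and 9). In that comparison 12% of all records had an unadjusted p under 0.05 in limma.

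Markers were read beside these values. Of 12 markers of synovial fibroblasts, 10 had a record and all averaged over 1 FPKM. Their sum ran from 6745 to 7238 FPKM in FCA and from 5765 to 7236 FPKM in the TCDCA groups. Single markers went both ways, with 2 higher and 8 lower in AT10 against FCA, and 0 passed the adjusted p. Thy1 was at 152 to 158 FPKM in FCA and 112 to 146 in the TCDCA groups. Lum was at 595 to 625 FPKM in FCA and 695 to 906 in the TCDCA groups. Of 12 macrophage markers, 8 had a record and 2 (Cd14 and Cd68) averaged over 1 FPKM, with sums of 5.89 to 22.1 FPKM, and the 6 endothelial markers with a record summed to at most 0.21 FPKM. Markers of smooth muscle (5 of 6 with a record) summed to 308 to 411 FPKM in FCA and 159 to 304 FPKM in the TCDCA groups. Most of that sum was Acta2, the smooth muscle actin gene also found in activated fibroblasts, which averaged 317 FPKM in FCA, 209 in AT10, 229 in AT1 and 224 in AT01 and did not pass the adjusted p. Cnn1, at 21.3 FPKM in FCA, 19.4 in AT10, 22.6 in AT1 and 21.8 in AT01, and likewise Myh11 and Des, overlapped between FCA and every dose. Markers of cartilage cells (5 of 5 with a record) summed to 8.01 to 10.1 FPKM in FCA and 4.73 to 8.54 FPKM in the TCDCA groups. The part of all these marker genes in the members' values was not tested. In such bulk libraries, fewer cells of a type and less RNA per cell cannot be told apart.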

How the data were processed

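Gene expression of 12 libraries of rat FLS was measured by poly(A) RNA-seq. Per the labels, reads were trimmed with cutadapt, aligned with HISAT2 and assembled with StringTie, and edgeR is also named. The methods of the study name Ballgown for expression. The authors deposited FPKM, which divides fragments by transcript length and library size, to 2 decimals for 22442 records, with no read counts, so the depth behind a value is unknown. No further scaling was applied. Sample columns were matched to groups by title.

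Values were transformed as log2(FPKM + 1), which understates the change of low genes, and the 11611 records averaging 1 FPKM or more entered limma 3.58.1 (R 4.3.3; lmFit, eBayes with trend), each fit holding only the groups compared, with Benjamini-Hochberg adjustment over all records. Exact permutation tests of the difference of means were two-sided, with a smallest p of 0.1 for 3 against 3 libraries and 0.00455 for 9 against 3. Correlations used 100000 permutations (Python 3.11.15, NumPy 2.4.6, SciPy 1.17.1), adjusted over 3 pairs. Upstream sequences were RefSeq (GRCr8). The scripts were tested on simulated data.

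All members and the listed S100 genes, receptors, partners and targets were named by rule, and the members and lists were chosen with earlier results of these data known. Alternatives were each library left out, the replicate number as a block, 1 fit over all 12 libraries, a Ballgown-style F test, a pseudocount of 0.1, filters at 10 FPKM or none, sums over records of 1 name, and median-of-ratios scaling. A sum over Hmgb1 and its copies was chosen after seeing the data.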

Additional observations from a re-analysis of the deposited data

Results flagged for a closer look

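Cacybp, the adaptor that binds S100a6, lay on opposite sides of FCA at 2 doses: all 3 AT10 libraries lay above and all 3 AT1 libraries below the FCA libraries. Of all records, 10.7% lay wholly above FCA in AT10 and 10% wholly below it in AT1. The value in AT1 did not pass the test (limma, adjusted p = 0.42), and the call in AT10 was lost in 9 of 14 alternatives. The log2 difference of AT10 against AT1 was 1.48 (limma, adjusted p = 0.215), and the difference between the 2 effects was not tested beyond this direct comparison.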

How the results depend on the processing

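The number of members called was 0 in all 104 alternative fits over the 7 comparisons. In the main fits only 0.0258% to 0.258% of all tested records passed, so a count of 0 among so few members is near that share. Of 372 alternatives for the members' fold changes, 20 turned the direction and 0 passed the threshold, and each of those 20 concerns a change that was not called. With FPKM summed over Hmgb1 and its copies, Hmgb1 was at -0.093 in AT1 and -0.23 in AT01, the latter 0.12 without AT01 replicate 1. With the Ballgown-style F test, Hmgb1 was at -0.030 and S100a11 at 0.041 in AT01. With each library left out in turn, the log2 fold change in AT10 ran from -0.031 to 0.17 for S100a6, from -0.15 to 0.012 for S100a10 and from -0.13 to 0.20 for Lcn2. In AT1 it ran from -0.0078 to 0.19 for S100a6, from -0.016 to 0.31 for Hmgb1 and from -0.10 to 0.054 for S100a4. In AT01 it ran from -0.088 to 0.046 for S100a11, from -0.16 to 5.7e-05 for S100a10 and from -0.13 to 0.40 for Hmgb1. In the 9 TCDCA libraries together it ran from -0.080 to 0.0077 for S100a11 and from -0.059 to 0.021 for S100a4. The cause was not tested.

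No pairing by replicate number was seen in the values. Deviations of same-numbered libraries of different groups correlated at -0.105 to 0.0942 in 18 pairs. Those of other-numbered libraries correlated at -0.154 to 0.149 in 36 pairs, and 4 of 12 libraries correlated best with their own number. Whether libraries of 1 number shared a culture or animal cannot be told from this. The replicate block left 0 members called in all 7 comparisons, where it called only 0 to 2 of all tested records. It gave Cacybp in AT10 an adjusted p of 0.334. That call was lost in 9 of 14 alternatives, the Ballgown-style test among them (adjusted p = 0.226).

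For the pairs, r of S100a10 and Anxa2 was 0.64 with group means removed and 0.21 to 0.67 with each library left out. The value with group means removed is given as a description, without a p-value. S100a4 and S100a6 gave 0.41 and S100a11 and Anxa1 -0.36 without the 2 farthest libraries, and 0.45 to 0.77 and -0.75 to -0.56 with each library left out. The number of reads behind a value is unknown, so the precision of the low levels of S100a8 and Hmgb1 cannot be stated.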
